A study of Mus musculus with 20 samples.

Results

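The regions described here are 157 enhancers that were transcribed in resting macrophages and whose level, averaged over every stimulated library, stayed close to the resting level. They are called near-baseline enhancers. Each had 15 or more tags in the 2 control libraries together, and a mean over the 18 stimulated libraries between 0.667 and 1.5 times the mean of the 2 control libraries. Of the 11222 enhancers of the deposited table, 552 reached 15 control tags. Of those 552, 385 fell below the window, 157 lay inside it and 10 lay above it. They were chosen by these measured values, so every level set against the control is given as a description, without a test.

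The study counted capped RNA 5′ ends with nAnT-iCAGE, an amplification-free version of CAGE (cap analysis gene expression). The cells were macrophages grown from bone marrow of C57BL/6 mice with macrophage colony-stimulating factor. The 10 groups had 2 libraries each: control cells at 0 h, and cells after 3, 9 or 15 h with interferon gamma (IFN-γ), with CpG oligodeoxynucleotide (CpG), or with the 2 together. The series describes the pairs as biological replicates, and p-values refer to the spread between these libraries. The growth protocol of all samples also lists an IL-4 plus IL-10 treatment; the labels do not say if these cells, controls included, received it. All 9 stimulated groups are compared with the same 0 h controls, so time in culture and stimulus cannot be told apart in those ratios. Macrophage marker genes were not analysed here.

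Active enhancers are transcribed from both strands into short, mostly unstable capped RNAs, and the number of capped ends at an enhancer is used as a reading of its activity. IFN-γ signals through a receptor at the cell surface, whereas CpG DNA is sensed in endosomes by TLR9, whose adaptor MYD88 leads to NF-κB. In macrophages many enhancers are already open and bound by lineage factors such as PU.1 before a stimulus arrives.

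The CpG ligand is shown because it is the designed sequence among the agents used. The labels' protocol gives it as ODN-1826, and capitals mark each of the repeated hexamers with a CpG.
CpG ODN: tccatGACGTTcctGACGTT
It has 20 bases and 2 copies of GACGTT. Sequences of the enhancers are not printed, since no genome of the build of these positions (mm39, per the submitters' processing notes) was used. Genes near them are not analysed here for the same reason, and positions are printed as deposited.

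Sequencing gave 12776280 to 13855472 tags per library, and enhancers took 12879 to 29794 of them. The near-baseline enhancers held 1245 to 2416 tags per library, or 7.66% to 10.6% of the enhancer tags. A near-baseline enhancer had a median of 10.1 tags per library (5.20 to 107), against 3.30 over the 2792 enhancers that passed the filter on low counts. All 157 passed that filter. At 10.1 tags counting error alone amounts to 31.5% of the level in 1 library and to 22.2% in a group of 2. Levels are in RPM, which is the tag count of an enhancer per 1000000 tags of the whole library.

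The ratio of stimulated to control mean ranged from 0.670 to 1.46 with a median of 0.865, and it was under 1 at 109 of the 157 enhancers. Among all 552 enhancers with 15 or more control tags the median ratio was 0.509, so the window took the upper part of a distribution that lay mostly below the control level. The 552 were chosen by high counts in the same 2 control libraries that the ratio divides by. Their low ratios can therefore not be read as a fall on stimulation. Over all 2792 enhancers tested, the median log2 difference from control on whole-library totals ran from -0.30 (IFN-γ at 3 h) to 0.40 (both stimuli at 15 h). At the lower edge, the region chr6:15726491-15726858 was just inside with a ratio of 0.670 and chr19:12778222-12778927 just outside with 0.665. At the upper edge, chr11:82957711-82957960 was inside with 1.46 and chr11:62114854-62115090 outside with 1.502. On the tag minimum, 14 members had exactly 15 control tags, and 25 further enhancers inside the ratio window had 14.

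**Figure D1:**
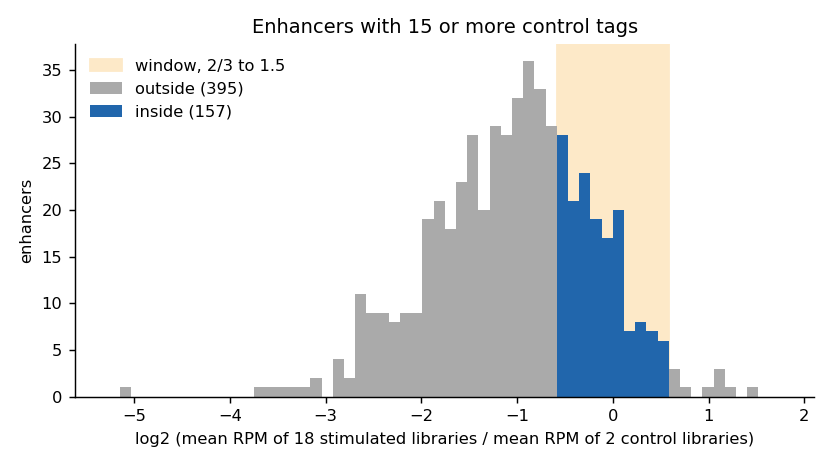
Number of enhancers (vertical axis) by log2 ratio of the mean RPM of 18 stimulated libraries to that of 2 control libraries, for the 552 enhancers with 15 or more control tags. The 157 inside the shaded window are blue, and the grey enhancers outside it lie mostly to its left, with 385 below and 10 above.

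The working name of these regions, constitutive enhancers stable under all stimuli, was not met by the separate group means. A mean near the control level did not keep every group mean near it. Of the 157, 154 left the window of 0.667 to 1.5 times the control in at least 1 of the 9 stimulated groups. At 76 enhancers the level was above the window in 1 group and below it in another, at 70 it was only ever below, and at 8 only ever above. A group mean 2-fold or more from the control occurred at 121 enhancers, and 26 had 2-fold differences in both directions. These counts include counting error, which is large for a group mean of about 20 tags, near 22% of the level. The control mean carries such error too, so an even enhancer could leave the window in 1 of 9 groups. The counts alone therefore do not show that a level changed, and they are given without like counts over the 552.

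Only 3 enhancers were inside the window in all 9 groups, which is 1.91% of the near-baseline enhancers and 0.543% of the 552 with enough control tags. They are named after their values were seen. The first was chr11:97720682-97721110, with 1.88 and 1.34 RPM in the controls and 0.837 to 2.26 RPM in the stimulated libraries. Its stimuli overlapped throughout: the lowest, median and highest of 6 libraries were 0.846, 1.22 and 1.51 RPM with IFN-γ, 1.23, 1.47 and 1.79 with CpG, and 0.837, 1.27 and 2.26 with both. The second was chr17:71159229-71159528, at 1.59 and 0.595 RPM in the controls and 0.523 to 1.49 RPM in the stimulated libraries, where replicates of 1 group differed as much as groups did. The third lay on chromosome 18 and had 18 control tags and a mean of 0.592 ± 0.178 RPM over the 20 libraries (SD). In edgeR's quasi-likelihood test over the 9 stimulated groups the adjusted p was 0.927, 0.868 and 0.961 for these 3, which does not show that their levels were equal.

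Each stimulated group had a median ratio to control of its own. With IFN-γ the median over the 157 enhancers was 0.676 at 3 h, 0.845 at 9 h and 0.751 at 15 h. With CpG it was 0.820, 0.939 and 0.978 at the same times, and with both stimuli 0.926, 0.698 and 1.03. On this scale of whole-library RPM the lowest medians were those of IFN-γ at 3 h and of both stimuli at 9 h. Scaled to enhancer tags by TMM the order differed: the members' median log2 difference from control was -0.17 with IFN-γ at 3 h, -0.25 with both stimuli at 3 h and -0.27 with both at 9 h. With IFN-γ at 3 h, 44 enhancers were 2-fold or more below the control and 2 were 2-fold or more above, beside 61.8% below and 0.725% above among the 552. With both stimuli at 3 h, 36 were 2-fold lower and 12 were 2-fold higher (55.1% and 3.44% of the 552). With both at 15 h only 8 were 2-fold lower and 7 higher (53.3% and 2.36% of the 552). The window on the mean was part of these counts, so nothing is read from the difference between the 2 sets.

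**Figure D2:**
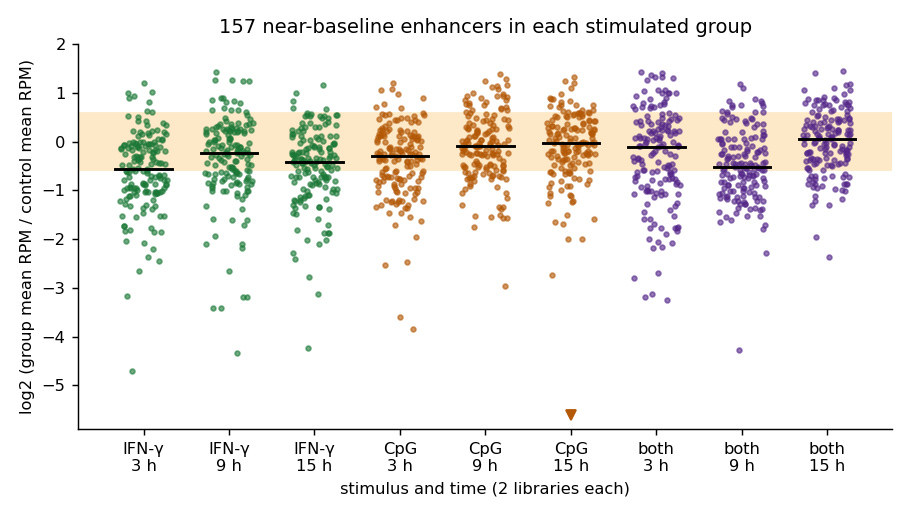
Each point is 1 of the 157 near-baseline enhancers, plotted as log2 ratio of group mean RPM to control mean RPM (vertical axis) in each stimulated group of 2 libraries (horizontal axis). Black lines are medians, the shaded band is the window from 0.667 to 1.5, and the triangle marks 1 enhancer with no tag in the CpG 15 h libraries; points spread well beyond the band in every group.

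Summed over the 157 enhancers, the control libraries had 159.8 and 152.7 RPM. IFN-γ libraries had 136 and 95.8 RPM (3 h), 117 and 159.97 RPM (9 h) and 118 and 123 RPM (15 h). CpG libraries had 130.3 and 139.8 RPM (3 h), 163 and 156 RPM (9 h) and 165 and 154 RPM (15 h). With both stimuli the sums were 129 and 168.6 RPM (3 h), 131 and 121 RPM (9 h) and 149 and 188 RPM (15 h). Replicates with IFN-γ at 3 h and 9 h, and with both stimuli at 3 h and 15 h, lay as far apart as many groups did, and with 2 libraries a side the smallest p of an exact two-sided permutation test is 0.333. The share of all enhancer tags was steadier within groups: it was 10.1% ± 0.0523 in the controls (SD, n = 2) and 7.85% ± 0.276 with both stimuli at 3 h, the lowest group.

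**Figure D3:**
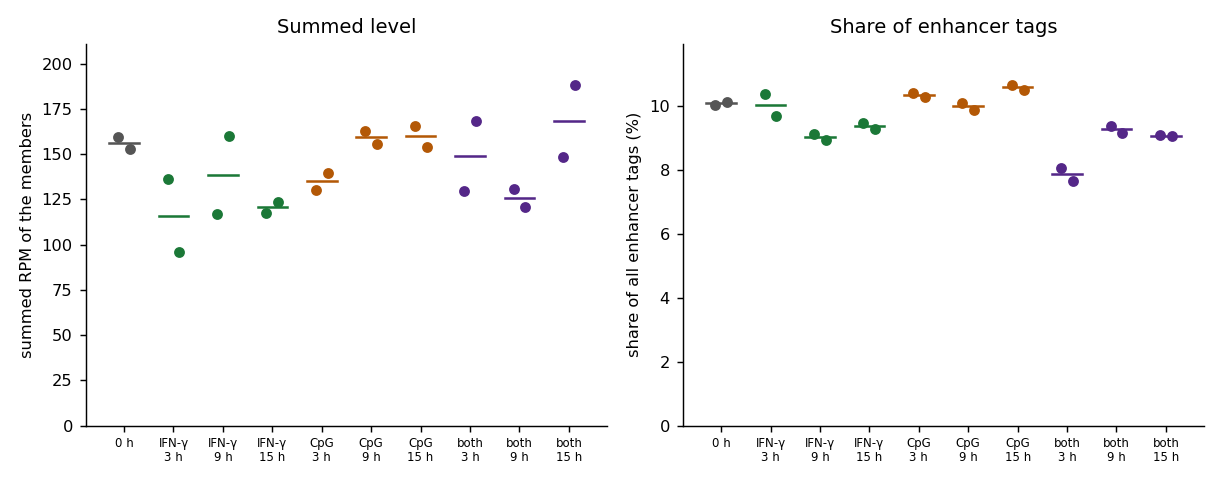
Left, summed RPM of the 157 near-baseline enhancers in each library; right, their share of all enhancer tags in percent, with points for the 2 libraries of a group and lines for their mean. Summed levels run from 95.8 to 188 RPM with wide gaps between some replicates, and shares from 7.66% to 10.6%.

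The single level with most tags was that of chrX:169088704-169089473, 769 bases long (end minus start), with a mean of 7.98 ± 1.97 RPM over the 20 libraries (SD). Its controls had 9.91 and 7.07 RPM. The lowest, median and highest of 6 libraries were 3.08, 6.54 and 7.41 RPM under IFN-γ, while CpG gave 9.09, 9.68 and 11.5 RPM. All CpG libraries lay above all IFN-γ libraries, and 1 control lay in the range of each. With both stimuli the values were 6.70, 8.21 and 8.81 RPM. CpG exceeded IFN-γ by 0.62 ± 0.14 on the log2 scale (SE; adjusted p = 4.71e-05, edgeR), and both stimuli were below CpG by 0.41 ± 0.13 in size (adjusted p = 0.0102, edgeR). The far end of the X chromosome carries the pseudoautosomal region that is shared with Y, and how tags from such sequence were divided is not stated.

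After it the levels dropped to 3.17 ± 0.861 RPM (SD over 20 libraries) at chr12:91554802-91555508, where the 6 libraries of 3 h had 2.77 to 4.81 RPM and those of 15 h 2.12 to 3.29 RPM. Those ranges overlapped, and the difference of 15 h from 3 h was -0.57 ± 0.17 on the log2 scale (SE; adjusted p = 0.0175, edgeR). The following 6 by level had means between 1.74 and 2.04 RPM. Among them chr3:95557709-95558344 was also among the 5 least variable of the enhancers with 10 or more tags: it had 2.46 RPM in each control, 1.37 to 2.02 RPM with IFN-γ, 1.33 to 2.68 with CpG and 1.29 to 2.44 with both, and no comparison of stimulated groups called it. Another of them, chr4:6356912-6357810, had 3.61 and 3.99 RPM with both stimuli at 3 h, above its other 18 libraries (0.704 to 3.04 RPM). Its level with both stimuli exceeded that with CpG by 1.09 ± 0.22 on the log2 scale (SE; adjusted p = 1.39e-05, edgeR).

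The common mean of the 9 stimulated groups was used to choose the members, and differences among these groups were not. The window on that mean still limits how far single groups can stray, so the share called is not free of the choice. Of the 157 near-baseline enhancers, 96 (61.1%) differed among the 9 groups at an adjusted p under 0.05 (edgeR quasi-likelihood F-test), and 61 did not pass. Over all 2792 enhancers tested the share called was 54.4%, and over the 689 of them with a mean of 5 or more tags per library it was 69.5%. These 689 had a median of 7.10 tags per library, against 10.1 for the members, so neither background is of the members' depth. The members' share lay between these 2 backgrounds, and no test of that difference was made. Of tested enhancers with 15 or more control tags, 50.3% of those below the window and all 10 above it were called. DESeq2 called 57 of the 157 (36.3%), beside 26.9% of all enhancers it was run on. The coefficient of variation of the 10 group means had a median of 40.5% at near-baseline enhancers (13.8% to 120.04%), 64.0% at the 385 below the window and 55.9% at the 689 with 5 or more tags; the window itself limits this value.

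The least even member was chr6:146014641-146015042. It had 0.940 and 1.04 RPM in the controls, at most 0.227 RPM in any of the 6 IFN-γ libraries, where 2 had no tag, and 0.764 to 2.98 RPM with CpG. IFN-γ lay below the controls, CpG at 9 h and 15 h above them, and both stimuli (0.0739 to 0.664 RPM) below the controls with some overlap with IFN-γ. Its ratio of 0.793 was thus a mean of levels that ranged from 1 tag over 2 libraries (IFN-γ at 3 h) to 70 tags (CpG at 9 h). The difference among the 9 groups had an adjusted p of 9.99e-32 (edgeR).

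CpG alone was next set against IFN-γ alone, averaged over 3, 9 and 15 h. The near-baseline enhancers divided in both directions: 35 were higher with CpG and 30 were higher with IFN-γ, 65 in all (41.4%; adjusted p under 0.05, edgeR). Over all enhancers tested 42.6% were called, 20.8% higher and 21.7% lower with CpG, and among those with 5 or more tags 49.1%. Scaled to whole-library totals in place of the enhancer tags, the same number was called, beside 42.2% of all enhancers tested. Of these members 44 were higher with CpG and 21 lower. That scaling also moved the median difference of all tested enhancers from 0.06 to 0.20 on the log2 scale for CpG minus IFN-γ, from 0.06 to 0.30 for both stimuli minus IFN-γ and from 0.04 to 0.13 for both minus CpG, and the median of the 157 moved from 0.10 to 0.26, from -0.07 to 0.17 and from -0.18 to -0.08.

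In the 35 enhancers higher with CpG, the median level was 0.772 RPM in the controls, 0.436 with IFN-γ, 1.13 with CpG and 0.824 with both. IFN-γ lay below the control at 34 of the 35 and CpG above it at 33. In the 30 enhancers higher with IFN-γ the order was turned, with medians of 0.807 RPM in the controls, 1.03 with IFN-γ, 0.573 with CpG and 0.825 with both. There CpG lay below the control at 29 of 30 and IFN-γ above it at 25. In both lists the control level stood between the 2 single stimuli, and so did the median level with both stimuli together. The lists were chosen by the difference between the single stimuli in these same libraries. The window on the mean also bears on these counts against the control, so they and the medians are a description.

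**Figure D4:**
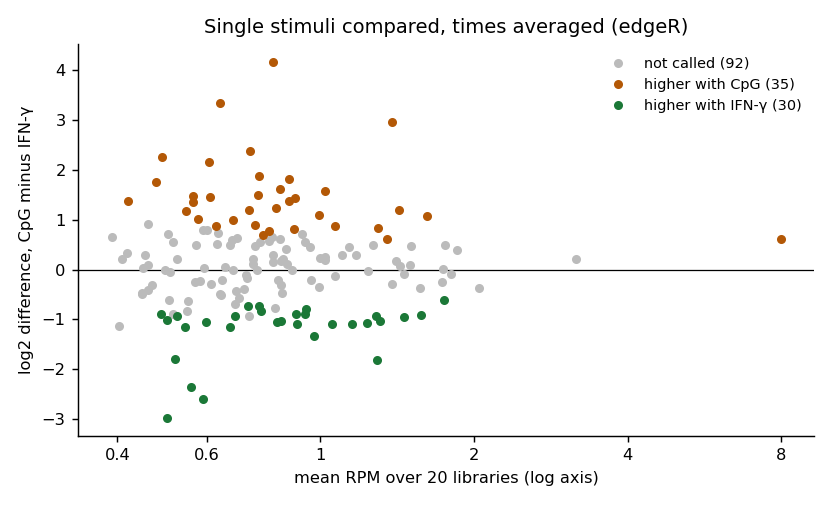
Log2 difference of CpG from IFN-γ, times averaged, from edgeR (vertical axis), against mean RPM over 20 libraries on a log axis, for the 157 near-baseline enhancers. The 35 called higher with CpG and the 30 called higher with IFN-γ lie on both sides of 0 along the range of levels, around 92 not called.

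The largest difference toward CpG was that of chr6:146014641-146015042, described above, at 4.17 ± 0.42 on the log2 scale (SE; adjusted p = 1.03e-20, edgeR). At chr7:109763250-109763767 the lowest, median and highest of 6 libraries were 0.00, 0.0759 and 0.363 RPM with IFN-γ. With CpG they were 0.891, 1.248 and 1.64 RPM, with 0.506 and 0.893 RPM in the controls. Every CpG library was above every IFN-γ library, and the difference was 3.35 ± 0.42 (SE; adjusted p = 2.70e-13, edgeR). At chr11:97200213-97200543 IFN-γ gave 0.00, 0.418 and 0.832 RPM and CpG 1.49, 2.79 and 3.54 RPM, beside controls of 1.45 and 1.49 RPM. Here too the stimuli did not overlap (difference 2.96 ± 0.30, SE; adjusted p = 7.19e-21, edgeR). The fourth, chr1:66854981-66855621, had 0.0722 to 0.308 RPM with IFN-γ and 0.535 to 1.57 RPM with CpG around controls of 0.796 and 0.744 RPM (difference 2.38 ± 0.38, SE; adjusted p = 1.83e-08, edgeR). Sizes at members with few tags depend on the scale: on log2(RPM + 0.5) in limma the difference was 1.97 at chr6:146014641-146015042 and 1.51 at chr7:109763250-109763767, and on log2(RPM + 2) it was 0.89 and 0.62.

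Toward IFN-γ, chr2:167802897-167803343 had 0.577, 0.821 and 1.13 RPM (lowest, median and highest of 6) under IFN-γ, while under CpG the values were 0.00, 0.113 and 0.313 RPM. Its controls, at 0.434 and 0.819 RPM, lay above every CpG library. The difference of CpG from IFN-γ was -2.60 ± 0.41 on the log2 scale (SE; adjusted p = 9.99e-09, edgeR), and -3.96 without replicate 2 of CpG at 15 h. At chr3:104957259-104957508 IFN-γ gave 0.769 to 1.21 RPM and CpG 0.0783 to 0.448 RPM, without overlap (-2.36 ± 0.38, SE; adjusted p = 1.27e-08, edgeR). At chr4:64002118-64002467 they gave 1.00 to 2.40 RPM and 0.157 to 0.891 RPM, again without overlap (-1.82 ± 0.27, SE; adjusted p = 5.20e-10, edgeR).

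A further member, chr1:176655010-176655584, had no tag in either library of CpG at 15 h and 2 and 0 tags at 9 h, beside 6 and 7 tags at 3 h. With IFN-γ its libraries held 2 to 10 tags, and with both stimuli at 3 h 15 and 27. It was the only near-baseline enhancer without a tag in a whole group. CpG differed from IFN-γ with an adjusted p of 2.49e-05 (edgeR), and no size is given for this difference, since with a group at 0 tags the fitted value depends on the prior count.

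The addition of CpG to IFN-γ was called at fewer members. With both stimuli against IFN-γ alone, 12 were higher and 15 were lower (27 of 157, 17.2%; adjusted p under 0.05, edgeR), beside 21.3% of all enhancers tested (12.3% higher, 8.95% lower) and 29.5% of those with 5 or more tags. The share was thus not above either background. Scaled to whole-library totals, 24 were higher and 8 lower (20.4%, beside 20.7% of all enhancers tested), so the majority turned with the scaling. Fits that left out 1 library also had a looser filter on low counts. The count fell to 16 without replicate 1 of IFN-γ at 15 h and to 17 without replicate 2 of both stimuli at 3 h, and DESeq2 called 15 (9.55%, beside 10.4% of all enhancers tested).

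The largest difference toward both stimuli was at chr6:123229772-123230136. IFN-γ libraries had 0.150, 0.224 and 0.453 RPM (lowest, median and highest), libraries with both 0.833, 1.02 and 1.63 RPM, and CpG libraries 0.626, 1.02 and 1.26 RPM. CpG and both stimuli overlapped and lay above every IFN-γ library and above the controls of 0.579 and 0.521 RPM. Both stimuli exceeded IFN-γ by 1.90 ± 0.36 on the log2 scale (SE; adjusted p = 5.77e-06, edgeR).

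Of the others, chr1:66854981-66855621 rose to 0.361 to 1.55 RPM with both stimuli (1.84 ± 0.41, SE; adjusted p = 0.000198, edgeR). At chr7:109763250-109763767 libraries with both stimuli had 0.221 to 0.813 RPM, and the difference from IFN-γ was 1.86 ± 0.53 (SE; adjusted p = 0.00465, edgeR). That value was 3.36 without replicate 2 of IFN-γ at 9 h, and in edgeR the adjusted p became 0.0571 without replicate 1 of both stimuli at 9 h and 0.0522 without replicate 2 of both stimuli at 15 h. At chr11:97200213-97200543 the difference was 1.246 ± 0.38 (SE; adjusted p = 0.00893, edgeR). It was 2.35 without replicate 2 of IFN-γ at 9 h, and in edgeR its adjusted p became 0.0593 without replicate 1 of IFN-γ at 9 h and 0.116 without replicate 2 of both stimuli at 3 h.

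In the other direction, chr17:27766195-27766562 had 1.08, 1.52 and 3.25 RPM with IFN-γ (lowest, median and highest) and 0.217, 0.460 and 0.887 RPM with both stimuli. The 2 stimuli did not overlap, the controls of 1.37 and 1.04 RPM lay near the IFN-γ libraries, and CpG alone, at 0.313, 0.970 and 1.23 RPM, overlapped each of them. Both stimuli were below IFN-γ by -1.97 ± 0.27 on the log2 scale (SE; adjusted p = 2.01e-10, edgeR). At chr3:104957259-104957508 the level with both stimuli, 0.078 to 0.813 RPM, overlapped that with CpG alone and in 1 library that with IFN-γ (-1.86 ± 0.35 against IFN-γ, SE; adjusted p = 4.21e-06, edgeR). At chr11:103870298-103870506 IFN-γ had 0.302 to 1.80 RPM and both stimuli 0.151 to 0.624 RPM, with overlap (-1.46 ± 0.38, SE; adjusted p = 0.00187, edgeR). The fourth, chr5:92109227-92109609, is described with the members that differed by time.

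The addition of IFN-γ to CpG was called at 47 members (29.9%; adjusted p under 0.05, edgeR), close to the 30.2% of all enhancers tested and below the 39.9% of those with 5 or more tags. Here 17 were higher and 30 were lower with both stimuli than with CpG, while over all enhancers tested 17.8% were higher and 12.4% lower. Scaled to whole-library totals the split was 17 higher and 22 lower (24.8%, beside 28.2% of all enhancers tested). DESeq2 called 27 members (17.2%, beside 15.9% of all enhancers tested), with 12 higher and 15 lower.

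Among the 30 lower ones the median level was 0.937 RPM in the controls, 0.477 with IFN-γ, 1.17 with CpG and 0.513 with both. The median with both stimuli was near that with IFN-γ alone. The list was chosen by both stimuli lying below CpG in these same libraries, and the window limits the mean of all stimulated libraries. Both choices bear on these medians, so they are a description. The members chr6:146014641-146015042 (-2.76 ± 0.33, SE; adjusted p = 1.60e-14, edgeR) and chr11:97200213-97200543 (-1.71 ± 0.23, SE; adjusted p = 7.62e-12, edgeR) led this list. Next came chr7:135251868-135252203, with 1.08, 1.35 and 2.61 RPM with CpG (lowest, median and highest of 6), 0.148, 0.566 and 0.984 with both and 0.224, 0.296 and 0.799 with IFN-γ. Its CpG libraries were above all libraries of the other 2 stimuli (-1.67 ± 0.29 for both minus CpG, SE; adjusted p = 2.73e-07, edgeR). The fourth, chr10:77042470-77042838, had 0.391 to 0.891 RPM with CpG and 0.0761 to 0.443 RPM with both, with some overlap (-1.62 ± 0.41, SE; adjusted p = 0.00094, edgeR).

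Among the 17 higher with both stimuli than with CpG, the medians were 1.06 RPM in the controls, 1.05 with IFN-γ, 0.639 with CpG and 1.35 with both. The choice of this list and the window bear on these medians in the same way. The member chr11:70359529-70359904 had 0.0764, 0.299 and 0.692 RPM with CpG, 0.885, 1.22 and 1.63 RPM with both, and 0.227 to 1.59 RPM with IFN-γ, where only the 9 h libraries (1.59 and 1.02 RPM) reached the level of both stimuli. Both exceeded CpG by 1.89 ± 0.33 (SE; adjusted p = 5.78e-07, edgeR). At chr2:167802897-167803343, which had 0.295 to 1.248 RPM with both, the difference was 2.14 ± 0.43 (SE; adjusted p = 1.71e-05, edgeR), and 3.54 without replicate 2 of CpG at 15 h. At chr4:64002118-64002467 it was 1.35 ± 0.28 (SE; adjusted p = 2.82e-05, edgeR), and chr1:176655010-176655584 was called as well (adjusted p = 0.000117, edgeR).

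Some near-baseline enhancers also differed by time. Between 15 h and 3 h, stimuli averaged, 17 were higher and 12 were lower at 15 h (29 of 157, 18.5%; adjusted p under 0.05, edgeR), beside 8.06% of all enhancers tested (4.48% higher, 3.58% lower). Among the 689 tested enhancers with 5 or more tags the share was 17.6%, and among tested enhancers with 15 or more control tags 15.8%. The members' share was near both, so it is not read as particular to them. Scaled to whole-library totals, 19 were higher and 7 lower (16.6%, beside 7.38% of all enhancers tested). DESeq2 called 18 members (11.5%, beside 5.37% of all enhancers tested) and a fit without a filter on low counts 19 (12.1%, beside 1.01%). The 17 higher at 15 h had median levels of 0.326, 0.856 and 1.09 RPM in the order of 3, 9 and 15 h, beside 0.953 in the controls. The 12 lower had 1.22, 0.762 and 0.577 RPM, beside 0.902 in the controls. Both lists were chosen by 15 h against 3 h in these same libraries, and the window limits the mean of all stimulated libraries. Both choices bear on the order of these medians and on their place around the control, so they are a description.

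The largest late difference was at chr5:142804435-142804856. At 3 h its 6 libraries held 0.00 to 0.605 RPM, below both controls of 1.37 and 1.41 RPM. At 15 h it had 1.13 and 0.374 RPM with IFN-γ, 1.38 and 1.252 with CpG, and 1.77 and 2.49 with both. Its highest libraries were those of IFN-γ at 9 h, with 3.32 and 3.27 RPM, so the course differed from 1 stimulus to another. The difference of 15 h from 3 h was 2.22 ± 0.34 on the log2 scale (SE; adjusted p = 1.04e-07, edgeR), and 3.46 without replicate 2 of CpG at 3 h.

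At chr12:8569400-8570010 the 6 libraries of 3 h had 0.00 to 0.229 RPM, and at 15 h those with CpG had 1.31 and 0.783 RPM, those with both 1.11 and 1.48 and those with IFN-γ 0.151 and 0.599. One IFN-γ library at 15 h thus lay within the range of 3 h. The difference was 2.18 ± 0.44 (SE; adjusted p = 9.37e-05, edgeR), 3.46 without replicate 1 of IFN-γ at 3 h, and not called without replicate 2 of IFN-γ at 15 h (adjusted p = 0.12, edgeR). At chr15:86053894-86054260 it was 1.90 ± 0.37 (SE; adjusted p = 4.53e-05, edgeR), with 0.0769 to 0.840 RPM at 3 h and 0.529 to 1.23 RPM at 15 h. At chr11:102319827-102320230 it was 1.86 ± 0.39 (SE; adjusted p = 0.000202, edgeR), 3.14 without replicate 1 of IFN-γ at 3 h, and not called without replicate 2 of CpG at 15 h (adjusted p = 0.116, edgeR).

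Early levels were the higher ones at chr11:16952806-16953220. With IFN-γ it had 2.34 and 1.54 RPM at 3 h and 0.681 and 0.748 RPM at 15 h, and with both stimuli 1.37 and 2.14 RPM at 3 h and 0.590 and 0.702 RPM at 15 h. With CpG the times overlapped, at 0.448 and 1.22 RPM and at 0.769 and 0.391 RPM. The difference of 15 h from 3 h was -1.22 ± 0.27 (SE; adjusted p = 0.000777, edgeR), with an adjusted p of 0.0942 in edgeR without replicate 2 of CpG at 3 h.

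At chr14:47612503-47613216 the 3 h libraries had 0.458 to 1.55 RPM and the 15 h libraries 0.369 to 0.673 RPM (-1.14 ± 0.31, SE; adjusted p = 0.00812, edgeR). It was not called without replicate 1 of CpG at 3 h (adjusted p = 0.0729, edgeR) or at 15 h (adjusted p = 0.0549, edgeR). The call of chr13:120423504-120423958 (-1.14 ± 0.34, SE; adjusted p = 0.0189, edgeR) was lost without any 1 of 7 libraries, with adjusted p of 0.0501 to 0.284 in edgeR: replicate 1 of IFN-γ, CpG and both stimuli at 3 h, either replicate of IFN-γ, replicate 1 of CpG and replicate 2 of both stimuli at 15 h. It was also lost in DESeq2, without a filter, with whole-library totals and in limma on log2(RPM + 0.1). The member without a tag at CpG 15 h, chr1:176655010-176655584, was also lower at 15 h (adjusted p = 0.000101, edgeR).

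**Figure D5:**
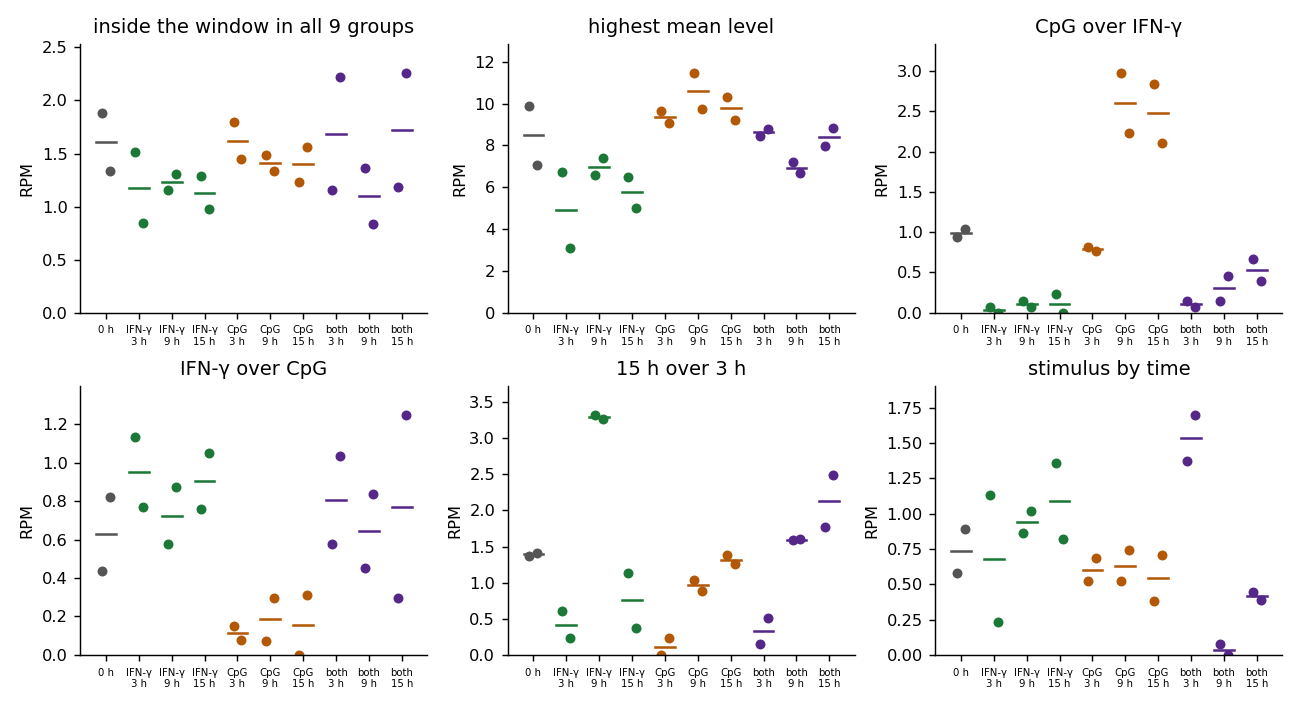
RPM in each library (points) and group mean (lines) for 6 near-baseline enhancers, with control at 0 h and each stimulus at 3, 9 and 15 h along the horizontal axis. In reading order they are those of chr11:97720682-97721110, chrX:169088704-169089473, chr6:146014641-146015042, chr2:167802897-167803343, chr5:142804435-142804856 and chr5:92109227-92109609; the first overlaps between all stimuli, and the third has IFN-γ libraries at 0.227 RPM or less beside CpG libraries at 0.764 RPM or more.

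The difference between stimuli depended on time at 7 members (4.46%; adjusted p under 0.05 for the stimulus by time interaction, edgeR), beside 0.537% of all enhancers tested, or 15 of 2792, and 1.89% of those with 5 or more tags. This count was sensitive, and fits that left out 1 library also had a looser filter on low counts. DESeq2 called 1 member (0.637%, beside 0.42% of all enhancers tested) and a fit without a filter 4 (2.55%, beside 0.0624%). A stricter filter called 15 (9.87%, beside 5.67%) and limma on log2(RPM + 0.5) called 12 (7.64%, beside 5.66%). It fell to 2 without replicate 1 of IFN-γ at 3 h, and to 4 without any 1 of 7 other libraries: replicate 2 of IFN-γ at 3 h, either replicate of IFN-γ at 15 h, replicate 2 of CpG at 3 h, either replicate of both stimuli at 3 h, and replicate 1 of both stimuli at 9 h.

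The lowest p was that of chr4:141600258-141600694, at 0.940 and 2.01 RPM in the controls. With CpG it went from 1.05 and 0.840 RPM at 3 h to 3.65 and 2.82 RPM at 9 h, and with both stimuli from 0.722 and 0.739 to 2.42 and 2.97 RPM. With IFN-γ it had 1.36 and 0.923 RPM at 3 h and 0.505 and 1.31 RPM at 9 h, which overlapped. The interaction had an adjusted p of 0.00586 (edgeR), and 0.290 without replicate 1 of IFN-γ at 3 h, 0.0508 without replicate 2 of that group and 0.0506 without replicate 1 of IFN-γ at 9 h. Whole-library totals gave 0.0554 (edgeR), and DESeq2 gave an adjusted p of 0.0508.

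A different order was seen at chr5:92109227-92109609. With both stimuli it had 1.37 and 1.70 RPM at 3 h, 0.0757 and 0.00 RPM at 9 h and 0.443 and 0.390 RPM at 15 h. With CpG it stayed between 0.384 and 0.743 RPM at all times, near the controls of 0.579 and 0.893 RPM, and with IFN-γ it had 0.231 to 1.36 RPM. The interaction had an adjusted p of 0.00837 (edgeR), which rose to 0.0512 to 0.0896 without any 1 of 4 libraries (replicate 2 of IFN-γ at 3 h, replicate 1 of IFN-γ at 15 h, and replicate 2 of both stimuli at 3 h and at 9 h). Averaged over time, both stimuli were below IFN-γ by -1.76 ± 0.41 on the log2 scale (SE; adjusted p = 0.000376, edgeR). Without replicate 1 of IFN-γ at 3 h this was -1.28 (adjusted p = 0.112, edgeR), and on log2(RPM + 0.5) it was -0.44 (adjusted p = 0.0594, limma).

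With libraries scaled to enhancer tags by TMM, spread between replicate libraries was close to counting error. That scaling takes out shifts of a whole library, which remain in the printed RPM and in the summed levels above. The observed variance between the 2 libraries of a group was divided by the variance that counting gives. Its median was 1.17 over the 156 members with enough tags in 8 or more groups. By the same requirement it was 1.08 over 208 of the 385 enhancers below the window and 1.11 over 906 of the 2792 tested. The biological coefficient of variation estimated by edgeR had a median of 14.5% at members, 17.0% below the window and 15.6% at tested enhancers with 5 or more tags. The widest member, chr7:15991755-15992283, reached 3.42 times counting error, with 1.44 and 0.385 RPM in the 2 libraries of IFN-γ at 3 h; both stimuli at 15 h gave 0.221 and 1.87 RPM. The next, chr1:171671730-171672103, reached 2.87, with 0.144 and 1.02 RPM at IFN-γ 9 h; both stimuli at 3 h gave 0.217 and 1.03 RPM.

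Membership itself was also read in libraries that had not chosen it. With the rule applied to the replicate 1 libraries alone, at 7.5 or more tags in the 1 control, 135 enhancers were chosen, of which 94 are among the 157. In replicate 2, 76 of the 135 (56.3%) were inside the window, 35 were below it, 23 were above it and 1 had no control tag and so no ratio. The reverse choice gave 138 enhancers, of which 82 (59.4%) were inside the window in replicate 1, 40 below and 16 above. The median ratio in the unused replicate was 0.960 and 0.871. More than 4 in 10 of the enhancers chosen in 1 replicate thus lay outside the window in the other. These ratios rest on 1 control library, so their counting error is larger than for the 157. The share over all enhancers at that tag minimum is not given, so these shares cannot be called low or high.

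At the median, members were longer and nearer to another enhancer than the whole table, and so were tested enhancers with 5 or more tags. Their median length was 434 bases (end minus start; 208 to 1328), beside 399 for enhancers below the window, 421 for tested enhancers with 5 or more tags and 288 for all of the table. The nearest other enhancer was a median of 1363 bases away, beside 1168 for tested enhancers with 5 or more tags and 3142 for the whole table. Another enhancer lay within 12.5 kb of 128 members (81.5%), beside 80.2% of tested enhancers and 84.0% of those with 5 or more tags.

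Chromosome 11 held 25 of the 157 members (15.9%) and 59 of the 552 enhancers with 15 or more control tags. Members were chosen from those 552, so the 6.98% of all deposited enhancers that lie there is not a matched background. On chromosome 11, 42.4% of the 59 were members, beside 157 of the 552 in all. Chromosomes 6, 5, 18, 2 and 1 had similar shares of 40%, 37.5%, 36.4%, 36.2% and 34.8%. The other chromosomes with such enhancers had lower shares, such as 11.1% on chromosome 14. Chromosome 2 held 17 members, chromosome 1 held 16, and chromosomes 5 and 6 held 12 each, whereas X held 1. No test was made of these shares. At gaps of at most 12.5 kb, 20 members formed 10 pairs and none formed a longer chain.

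Of the 10 pairs, 3 on chromosome 11 are described, and no difference between neighbours was tested. The first pair had 1553 bases between its members. There chr11:16952806-16953220 was called lower at 15 h than at 3 h, and its neighbour chr11:16954773-16955111 was at 0.615 to 1.77 RPM at 3 h and 0.374 to 1.11 RPM at 15 h (-0.52 ± 0.29, SE; adjusted p = 0.283, edgeR). In the second pair, 8219 bases apart, chr11:32299599-32300186 was not called in any comparison, and chr11:32308405-32308744 was lower at 15 h (-1.14 ± 0.35, SE; adjusted p = 0.0221, edgeR). In the third, 1865 bases apart, chr11:81895451-81896002 differed among the 9 groups (adjusted p = 0.0175, edgeR), with its highest values of 1.70 and 2.26 RPM with both stimuli at 15 h, while chr11:81897867-81898480 did not pass (adjusted p = 0.215, edgeR).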

How the data were processed

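The authors deposited raw tag counts per enhancer and library, and a table headed TPM whose values are RPM: dividing counts by them gave 1 total per library for all enhancers. Reads were handled with HISAT2 2.1.0, BWA 0.7.10, Trimmomatic 0.38 and FastQC 0.11.5 on build mm39, per the submitters' processing notes; the enhancer caller is not given in the sources used here. Whether starts count from 0 or 1 is not stated. Whether the protocol's IL-4 and IL-10 step, doses and stimulation length apply to these libraries is not stated.

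Members were chosen from both tables by the rule in the opening. Members, lists and tests were chosen with earlier results of these data known. Counts were tested with edgeR 4.0.16 (R 4.3.3; TMM on enhancer tags, filterByExpr with minimum count 5 and total 15, robust quasi-likelihood, two-sided) on all 20 libraries, with 1 coefficient per group and 10 residual degrees of freedom. P-values were Benjamini-Hochberg adjusted over 2792 enhancers, threshold 0.05. In fits that left out 1 library, the smallest group had 1 library. The filter then kept enhancers that reached the minimum count in any 1 library, so p-values were adjusted over more enhancers. A call lost in such a fit cannot be put down to the library alone. Levels are the deposited RPM; SE is the size of the log2 difference over √F. The script was tested on simulated data. DESeq2 1.42.0, limma 3.58.1 on log2(RPM + 0.5), other filters, scalings and windows, and leaving out each library were alternatives; the reading of 1 replicate by the other, and the background of enhancers with 5 or more tags, were added after seeing the data.

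Named enhancers were the 8 with the highest mean, the 5 least variable with 10 or more tags and the 3 most variable, up to 4 with the largest difference each way per comparison, those with the lowest p over the 9 groups and for the interaction, the 2 with the widest replicates, those at the edges of the rule, and 3 pairs of neighbours.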

Additional observations from a re-analysis of the deposited data

Results flagged for a closer look

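For 7 near-baseline enhancers the difference between stimuli changed with time, by the stimulus by time interaction of edgeR's quasi-likelihood test. The adjusted p was 0.00586 at chr4:141600258-141600694, 0.00647 at chr11:102319827-102320230, 0.00837 at chr5:92109227-92109609, 0.0116 at chr1:64341957-64342488, 0.0282 at chr6:129448291-129448731, 0.0345 at chr5:142804435-142804856 and 0.0356 at chr8:123283407-123283826 (edgeR).

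Of those not yet described for their course, chr11:102319827-102320230 had 0.227 and 0.00 RPM with IFN-γ at 3 h and 1.44 and 1.38 RPM at 9 h, while CpG had 0.523 and 0.916 RPM at 3 h and 0.745 and 0.297 RPM at 9 h. Its adjusted p was 0.0546 in DESeq2, and 0.312 without replicate 2 of CpG at 3 h (edgeR). At chr1:64341957-64342488 CpG gave 0.0747 and 0.153 RPM at 3 h and 1.42 and 0.965 RPM at 9 h, and both stimuli gave 0.650 and 1.18 RPM at 3 h and 0.303 and 0.3804 RPM at 9 h. Its adjusted p was 0.251 and 0.111 without replicate 1 or 2 of CpG at 3 h (edgeR). It was 0.0695 and 0.0609 without replicate 1 of IFN-γ at 3 h or 15 h, and 0.0515 without replicate 1 of both stimuli at 9 h (edgeR). DESeq2 gave an adjusted p of 0.0546.

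At chr6:129448291-129448731 both stimuli gave 1.16 and 1.48 RPM at 3 h and 0.378 and 0.228 RPM at 9 h, while IFN-γ gave 0.302 and 0.154 RPM and then 0.794 and 0.799 RPM. Its adjusted p was 0.0960 to 0.208 without any 1 of 6 libraries (edgeR): either replicate of IFN-γ or of both stimuli at 3 h, replicate 2 of IFN-γ at 15 h, and replicate 1 of both stimuli at 15 h. It was 0.0960 in DESeq2 and 0.0844 without a filter on low counts (edgeR). At chr8:123283407-123283826 the lowest libraries were those of both stimuli at 3 h, with 0.650 and 0.813 RPM beside 1.49 to 4.00 RPM in the other 18. Its call was lost in 17 of 20 fits that left out 1 library and in 7 of 9 other settings. At chr5:142804435-142804856 the call was lost in 5 of 20 such fits and in 4 of 9 other settings. Fits that left out 1 library also had a looser filter on low counts, so a lost call cannot be put down to that library alone.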

How the results depend on the processing

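The number of near-baseline enhancers was 330 with 10 or more control tags, 41 with 30 or more, 90 with a ratio window from 0.8 to its inverse and 277 with a window of 0.5 to 2; leaving out 1 library gave 136 to 163. Membership turned over more than that count: 104 of the 157 were kept without control replicate 1, 96 without control replicate 2, and 149 to 157 without any 1 stimulated library. Counts of members called that moved by over 1.5 times were as follows. DESeq2 called 57 members among the 9 groups, 15 for both stimuli against IFN-γ, 27 for both against CpG, 18 for 15 h against 3 h and 1 interaction, beside 26.9%, 10.4%, 15.9%, 5.37% and 0.42% of all enhancers tested. Without a filter there were 19 for 15 h against 3 h and 4 interactions (beside 1.01% and 0.0624%). A stricter filter gave 15 interactions, and limma on log2(RPM + 0.5) and log2(RPM + 2) gave 12 and 14 (beside 5.67%, 5.66% and 7.27% of all enhancers tested). Leaving out 1 library gave 81 to 96 among the 9 groups, 53 to 66 for CpG against IFN-γ, 16 to 23 for both against IFN-γ, 33 to 44 for both against CpG, 20 to 31 for 15 h against 3 h and 2 to 8 interactions. Of 396 values of named enhancers in settings with all libraries, 373 kept their call. No named difference between stimuli or times turned direction, there or in fits that left out 1 library. The named p-values of the 9-group and interaction tests have no direction. Correlations of same-numbered deviations over 45 pairs of groups ran from -0.0540 to 0.0365. With so few tags per enhancer, counting error could hide a shared effect, so these values do not show that the libraries were unpaired. With the replicate block 97 members were called among the 9 groups, 65 for CpG against IFN-γ and 26 for both against IFN-γ. It called 47 for both against CpG, 29 for 15 h against 3 h and 8 interactions. In the same order, the shares of all enhancers tested were 52.3%, 41.9%, 20.6%, 29.7%, 7.77% and 0.573%. At a median of 10.1 tags per library, differences near counting error were not detectable.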
